A study of Rattus norvegicus with 6 samples.

Results

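A set of 832 regions of the rat genome carried a DNase I hotspot in every untreated and every LPS library of cultured microglia and in neither library from microglia given glioma-conditioned medium (GCM). The set was taken from 129499 counted regions with the authors' hotspot lists, 1 list per library. A member overlapped a hotspot by 1 bp or more in all 4 untreated and LPS lists, and in neither GCM list. The members made up 0.642% of the counted regions and 1.13% of the 73594 regions whose untreated and LPS lists all held a hotspot.

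The data were DNase I sequencing libraries of primary microglia, shaken from mixed cortical cultures of Wistar pups of 1 day of age after 2 weeks of growth with 10% serum and kept for another 48 h. Each of the 3 groups had 2 independent cultures, each made from a pool of 10 to 15 pups. The untreated cultures received no stimulus. The LPS cultures received 100 ng/mL of lipopolysaccharide from Salmonella enteritidis for 6 h. The GCM cultures received, for 6 h, medium in which the rat glioma line C6 had been kept for 24 h, spun to clear debris. That medium contained serum as well, and the labels name no fresh-medium group. Positions are those of the rat build rn5, with the first base counted as 1. The regions carry no gene names and no sequence or annotation of rn5 was used here, so the cell type was not checked against its marker genes and no member was assigned to a gene.

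DNase I cuts DNA most readily where nucleosomes are absent or displaced, which is typical of promoters, enhancers and other regulatory elements. A hotspot is a stretch where cut ends are denser than in the surrounding sequence by a set cutoff, so a region without a hotspot can still hold tags. Microglia are the resident immune cells of the brain. LPS is sensed through a Toll-like receptor and drives inflammatory gene programmes, whereas factors released by glioma cells are known to move microglia to a state that favours tumour invasion.

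The libraries held 60.1 M to 120.5 M tags, of which 10.0% to 13.7% lay in counted regions (7.14 M to 12.4 M). The lists held 107489 to 160868 hotspots, and the shortest was that of untreated 2, the library with the fewest counts in regions. GCM 1 had the fewest tags in all and the largest percentage in regions, and GCM 2 the most tags and the smallest percentage. Levels below are CPM, tags scaled to a fixed total of tags in counted regions and corrected by the trimmed mean of M values (TMM), and they are not divided by width unless stated.

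The members held fewer tags in the GCM libraries, but they were not empty there. Their summed tags, as a share of the counts in regions, were 0.324% in untreated 1 and 0.359% in untreated 2, 0.332% in LPS 1 and 0.328% in LPS 2, and 0.221% in GCM 1 and 0.256% in GCM 2. The group means were 0.341% ± 0.0249 untreated, 0.330% ± 0.00296 with LPS and 0.238% ± 0.0241 with GCM (SD, n = 2 each). Both GCM libraries lay below the other 4, and the untreated and LPS libraries overlapped. The widest 95% Wilson interval of these shares ran from 0.354% to 0.363%, in untreated 2, and it covers counting error only.

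The median member stood at 3.76 and 4.06 CPM untreated, at 3.66 and 3.67 CPM under LPS, and at 2.58 and 2.87 CPM under GCM. Behind these stood median counts of 42, 29, 36, 45, 21 and 35 tags in the same order. For a single member the GCM mean was 70.4% of the untreated mean at the median, with 5th and 95th percentiles of 52.7% and 88.5%. Against the LPS mean it was 75.1%, with 5th and 95th percentiles of 50.6% and 94.6%. A GCM level at or under 50% of the untreated level was seen in 24 members, and one at or over 90% in 37. These values describe the choice of members, since the hotspot calls and the counts come from the same tags.

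**Figure D1:**
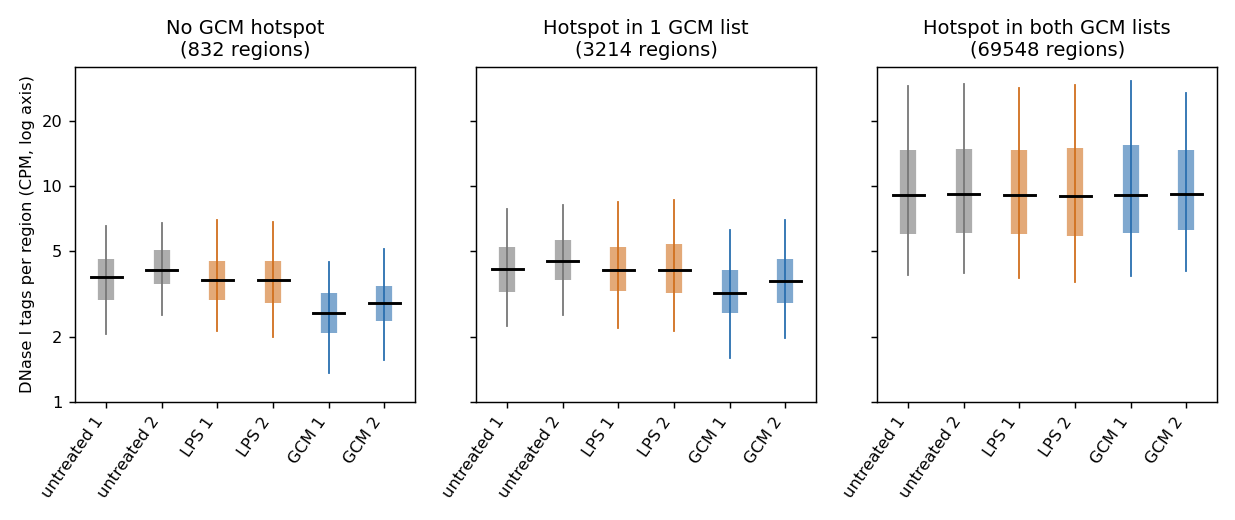
DNase I tags per region in CPM (log axis) by library, for the regions with no GCM hotspot, a hotspot in 1 GCM list, or a hotspot in both, all with hotspots in the untreated and LPS lists. Black lines are medians, boxes the middle 50% and thin lines the 5th to 95th percentiles over regions; the members' medians were 3.66 to 4.06 CPM in untreated and LPS libraries and 2.58 and 2.87 CPM with GCM.

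On the log2 scale the median difference between GCM and untreated was -0.47 over the 831 members that passed the filter on low counts, with quartiles of -0.62 and -0.34, against -0.00 over all 126284 regions tested. The member that did not pass was chr9:43059745-43059785, 41 bp wide. Of the 831, 826 lay below 0, and the range ran from -1.21 to 0.15. Between GCM and LPS the median was -0.40, with 812 members below 0. Under the edgeR quasi-likelihood test at an adjusted p of 0.05, 24 members (2.89%) were lower with GCM than untreated, beside 1.57% of all regions called in either direction, 0.231% called lower and 1.34% called higher. No member was called higher, and none was higher at an unadjusted p under 0.05, while 359 were lower at that level. Of all 126284 regions tested, 19099 had such a p in either direction. For GCM against LPS 118 members (14.2%) were lower and 0 higher, also 0 higher at an unadjusted p under 0.05, beside 8.58% of all regions called, 4.84% lower and 3.75% higher. Both GCM libraries lay below both untreated ones in 726 members (87.4%), where 22.4% of all regions did, and below all 4 other libraries in 585 (70.4%), where 8.66% did. Nothing is read from these counts, because the rule used this contrast.

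The difference between GCM and untreated followed the number of GCM lists that held a hotspot, in part by construction. The 3214 regions with a hotspot in exactly 1 GCM list had a median log2 difference between GCM and untreated of -0.29, and the 69548 regions with a hotspot in every list had -0.01. Their median levels were 3.20 and 3.61 CPM with GCM in the former and 9.09 and 9.18 CPM in the latter. These sets already differed untreated, at 4.12 and 4.48 CPM in the former and 9.04 and 9.11 CPM in the latter. The regions missing only with LPS gave the mirrored picture. Those 1013 regions, 1.37% of the 73921 with hotspots in all untreated and GCM lists, had a median log2 difference of -0.64 between LPS and untreated and -0.03 between GCM and untreated.

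**Figure D2:**
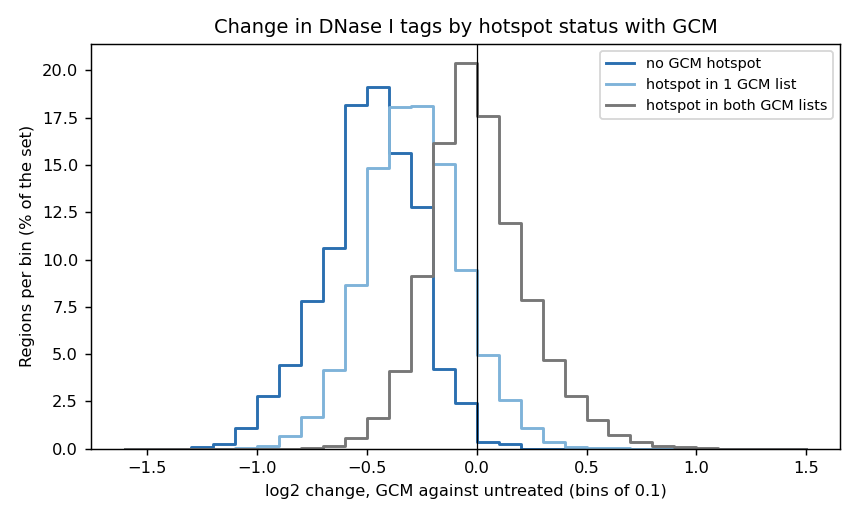
Distribution of the log2 change between GCM and untreated (x axis, bins of 0.1; y axis, percentage of the set) for regions with no GCM hotspot, a hotspot in 1 GCM list and hotspots in both. The medians were -0.47, -0.29 and -0.01, and the distributions overlap.

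The GCM libraries were not equally low. GCM 1 was the lowest of the 6 libraries in 580 members and GCM 2 in 198. GCM 1 lay below GCM 2 in 617 of the 832 members (74.2%), where it did so in 53.1% of all regions tested. GCM 1 was also the GCM library with fewer tags and the shorter hotspot list, and the part of this in the result was not tested.

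Members just inside and regions just outside the rule are given as a description. The region chr4:67167231-67167499 touched a hotspot of GCM 1 without sharing a base and had 3.76 and 3.36 CPM untreated, 4.27 and 2.77 CPM with LPS and 1.84 and 2.62 CPM with GCM. The region chr1:22730532-22731044, 1 bp from a hotspot of GCM 2, had 5.46 and 7.85 CPM untreated, 5.38 and 5.96 CPM with LPS and 3.44 and 4.83 CPM with GCM. In both, the GCM libraries were below all 4 others. The first region outside, chr8:125738321-125738513, shared 3 bp with a hotspot of GCM 2 and had 1.34 and 1.68 CPM untreated, 2.03 and 2.04 CPM with LPS and 1.47 and 1.15 CPM with GCM. The next, chr14:14074054-14074370, shared 5 bp with a hotspot of GCM 2 and had 4.03 and 4.48 CPM untreated, 4.06 and 6.20 CPM with LPS and 3.07 and 3.69 CPM with GCM. The GCM libraries overlapped the untreated ones in the former and lay below all 4 in the latter.

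The rule did not use the direction of the difference between LPS and untreated, but it did use these 4 lists: a region that lost or gained its hotspot with LPS could not be a member, which limits the size of the difference. The share of members called is therefore a description, while the values of single members show which regions differed within that limit. In edgeR's quasi-likelihood test with Benjamini-Hochberg adjustment over all regions, 25 of the 831 members (3.01%) rose with LPS and 7 (0.842%) fell. Together they were 32 members (3.85%), beside 9.85% of all regions tested, of which 6.71% were higher and 3.14% lower. The share was 6.38% among regions with hotspots in every list, 37.3% among those missing only with LPS and 30.4% among those missing only untreated. It was thus low in the sets that needed hotspots in all untreated and LPS lists and high in those that did not, and nothing about the members is read from it. Median counts in the untreated and LPS libraries were 42, 29, 36 and 45 in the members. In the same order they were 101, 65, 89 and 110 in regions with hotspots in every list. They were 43, 31, 25 and 32 in regions missing only with LPS and 28, 19, 39 and 45 in those missing only untreated. The members were thus lower throughout only against regions with hotspots in every list. The part of depth in the share called was not tested. At an unadjusted p under 0.05, 46 members were higher and 42 lower. These were 88 of 831 members, beside 29822 of all 126284 regions tested.

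Over the 831 members the median log2 difference between LPS and untreated was -0.07, with quartiles of -0.24 and 0.10, against -0.00 over all regions tested. There were 512 members below 0 and 319 above. The direction of that median turned with the scaling, to 0.013 with whole-library totals, which also moved the median of all regions to 0.09, and to 0.014 without untreated 2. Both LPS libraries lay above both untreated ones in 117 members (14.1%; 27.9% of all regions) and below them in 253 (30.4%; 26.3%). Fewer members were called without untreated 1, untreated 2 or LPS 2, and a smaller share of all regions was called too. The members' median log2 difference was -0.15 without untreated 1 and -0.07 without LPS 2. With whole-library totals edgeR called 19 members (2.29%), all higher, beside 5.52% of all regions tested. DESeq2 called 2 (0.241%), both higher, beside 0.618% of all regions tested, with 23 members at an unadjusted p under 0.05. The matching count of all regions at that level is not given.

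**Figure D3:**
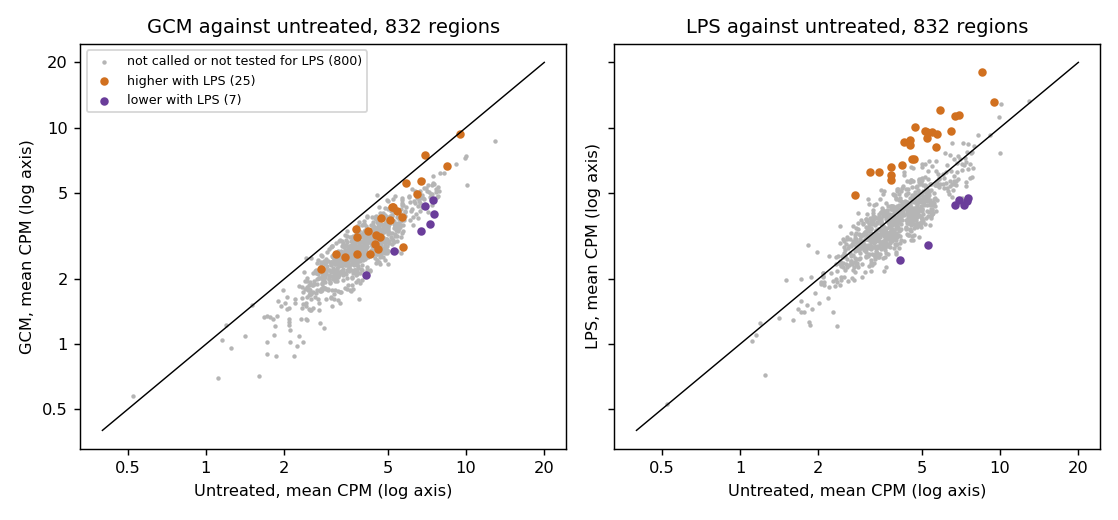
Mean CPM of each of the 832 regions with GCM (left) and with LPS (right) against its untreated mean, on log axes, with the line of equal levels. Coloured points are the 25 regions that rose and the 7 that fell with LPS in the edgeR test; nearly the whole set lies below the line with GCM and around it with LPS.

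The 25 members that rose with LPS were higher and wider than the 799 not called, which had medians of 3.86 CPM untreated and 318 bp. So were the 7 that fell, with 6.97 CPM untreated and 477 bp. The part of tag number in being called was not tested. The median level of the 25 was 4.70 CPM untreated, 8.73 CPM with LPS and 3.40 CPM with GCM, and their median width was 486 bp. The median log2 change with LPS was 0.84, from 0.46 to 1.11, and 5 members exceeded a 2-fold increase. Their median log2 difference between GCM and untreated was -0.36, and that between GCM and LPS was -1.17, with all 25 called lower in a contrast that the rule had used. Of these 25, 23 had no GCM hotspot within 500 bp. In all 25 both LPS libraries were above both untreated ones.

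The member with the smallest p was chr7:119990026-119990651, 626 bp wide, which was also the member with the highest mean level over the untreated and LPS libraries. It had 9.40 and 7.57 CPM untreated, 17.5 and 18.8 CPM with LPS and 6.88 and 6.39 CPM with GCM. The LPS libraries stood apart from the other 4, and the GCM libraries were the lowest. The log2 change with LPS was 1.07 ± 0.142 (SE; edgeR adjusted p = 2.17e-06), and it kept its call in all 15 alternatives tried. The difference between GCM and untreated was -0.39 ± 0.175 (SE; edgeR adjusted p = 0.265).

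The next by p, chr9:60060579-60061254, had 6.18 and 5.61 CPM untreated, 11.5 and 12.7 CPM with LPS and 5.53 and 5.57 CPM with GCM. Its LPS libraries were above the rest, while the GCM libraries lay just under the untreated ones. The log2 change with LPS was 1.03 ± 0.160 (SE; edgeR adjusted p = 2.4e-05), which also kept its call in all 15 alternatives.

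A similar order was seen in chr13:114356144-114356494, with 4.03 and 4.48 CPM untreated, 7.41 and 9.79 CPM with LPS and 2.46 and 2.79 CPM with GCM. Its log2 change with LPS was 1.05 ± 0.193 (SE; edgeR adjusted p = 0.00026), and DESeq2 did not call it (adjusted p = 0.133). The region chr2:231201170-231201659 had 4.92 and 5.33 CPM untreated, 9.85 and 9.47 CPM with LPS and 3.44 and 4.01 CPM with GCM. In both regions the 3 groups did not overlap. The log2 change of the latter was 0.92 ± 0.173 (SE; edgeR adjusted p = 0.000346; DESeq2 adjusted p = 0.140).

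The remaining region of the 5 chosen, chr7:36631401-36631887, rested on LPS 2. It had 4.92 and 4.48 CPM untreated, 6.91 and 13.1 CPM with LPS and 3.69 and 3.93 CPM with GCM, so the LPS libraries differed from each other by more than LPS 1 differed from the untreated ones. The log2 change was 1.11 ± 0.210 (SE; edgeR adjusted p = 0.000346), but without LPS 2 it was 0.54 with an adjusted p of 0.171, and DESeq2 gave an adjusted p of 0.108.

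The 7 members that fell with LPS had lower median levels with both stimuli than untreated. Their median level was 6.97 CPM untreated, 4.41 CPM with LPS and 3.60 CPM with GCM. The median log2 difference from untreated was -0.67 with LPS and -0.94 with GCM, and that between GCM and LPS was -0.21. These comparisons share the untreated libraries, so the values are given side by side only. None of the 7 was called with whole-library totals or by DESeq2, nor without untreated 2.

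The strongest by p was chr2:267886833-267887165, with 4.84 and 5.75 CPM untreated, 2.74 and 3.02 CPM with LPS and 2.58 and 2.79 CPM with GCM. The stimulated libraries overlapped each other and lay below both untreated ones. Its log2 change with LPS was -0.84 ± 0.220 (SE; edgeR adjusted p = 0.00987). The region chr15:17646936-17647452 had 6.98 and 7.57 CPM untreated, 4.27 and 4.49 CPM with LPS and 3.20 and 4.01 CPM with GCM, and its log2 change with LPS was -0.72 ± 0.191 (SE; edgeR adjusted p = 0.0114). It had also the smallest p of all members for GCM against untreated, with a difference of -0.97 ± 0.203 (SE; edgeR adjusted p = 0.00843, a description).

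In chr14:82244343-82244881 the levels were 6.54 and 8.41 CPM untreated, 4.47 and 4.65 CPM with LPS and 4.30 and 4.92 CPM with GCM (LPS log2 change -0.67 ± 0.192 SE, edgeR adjusted p = 0.0185). In chr6:154080346-154080639 they were 4.48 and 3.78 CPM untreated, 2.44 and 2.45 CPM with LPS and 2.21 and 1.97 CPM with GCM (-0.78 ± 0.237 SE, edgeR adjusted p = 0.028). In chr19:69834132-69834608 they were 7.07 and 6.87 CPM untreated, 4.98 and 4.24 CPM with LPS and 4.18 and 4.51 CPM with GCM (-0.61 ± 0.190 SE, edgeR adjusted p = 0.0318). In each of these the stimulated libraries were below both untreated ones, and in the first and last the LPS and GCM libraries overlapped.

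**Figure D4:**
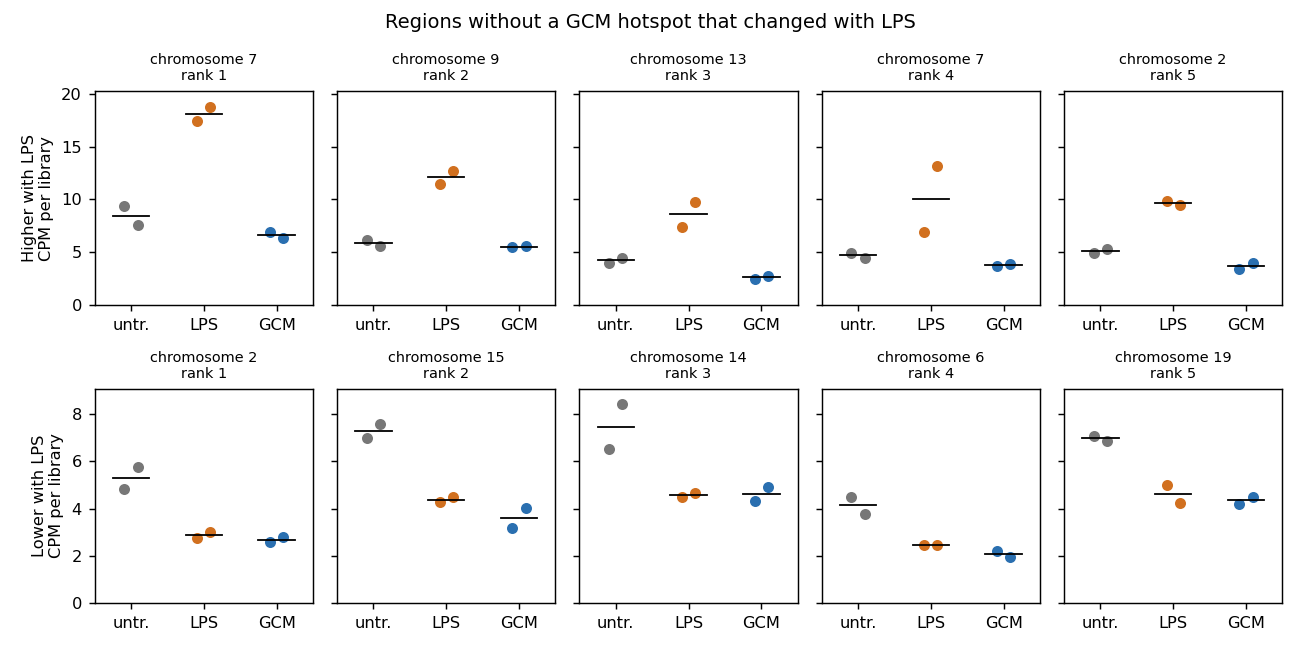
CPM per library (points) and group means (lines) of the 5 regions without a GCM hotspot that rose with LPS (upper row) and the 5 that fell (lower row) with the smallest p, in order of p. In the upper row the LPS points stand above both other groups, for example 17.5 and 18.8 CPM in the first panel, and in the lower row LPS and GCM points both lie below the untreated ones.

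The other 799 members tested were not called for LPS, and their median levels were 3.86 CPM untreated, 3.68 CPM with LPS and 2.70 CPM with GCM. Among the members with the highest mean level, chr3:26786440-26787444 was also the widest, at 1005 bp. It had 11.6 and 14.3 CPM untreated, 12.3 and 14.1 CPM with LPS and 7.62 and 9.67 CPM with GCM. The untreated and LPS libraries overlapped and both GCM libraries were lower. Its log2 difference was 0.06 ± 0.144 for LPS (SE; edgeR adjusted p = 0.856) and -0.53 ± 0.158 for GCM against untreated (SE; edgeR adjusted p = 0.071).

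In 3 more wide or high regions both GCM libraries were again the lowest. The region chr5:13914058-13914961 (904 bp) had 8.95 and 10.9 CPM untreated, 11.8 and 10.5 CPM with LPS and 6.88 and 7.62 CPM with GCM. The region chr14:5094239-5095000 (762 bp) had 9.04 and 9.25 CPM untreated, 9.34 and 9.14 CPM with LPS and 5.78 and 7.78 CPM with GCM. The region chr7:3046180-3046983 (804 bp) had 7.97 and 8.55 CPM untreated, 9.45 and 9.06 CPM with LPS and 5.65 and 6.72 CPM with GCM. The LPS and untreated libraries overlapped in the first 2, while in the last both LPS libraries were above both untreated ones. None of the 3 was called for LPS or for GCM against untreated.

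Other regions high in the set were higher with LPS and were not called for GCM against untreated. The region chr7:18656855-18657808 (954 bp) had 9.76 and 9.25 CPM untreated, 12.9 and 13.3 CPM with LPS and 8.48 and 10.2 CPM with GCM, with a log2 change of 0.46 ± 0.146 with LPS (SE; edgeR adjusted p = 0.037). The GCM and untreated libraries overlapped, with a log2 difference of -0.01, although neither GCM list held a hotspot there. The region chr6:101275351-101276031 had 6.63 and 7.29 CPM untreated, 9.95 and 12.8 CPM with LPS and 7.62 and 7.29 CPM with GCM, with 0.74 ± 0.162 for LPS (SE; edgeR adjusted p = 0.00206) and 0.11 ± 0.180 for GCM (SE; edgeR adjusted p = 0.84). The region chr4:177517022-177517687 had 6.72 and 6.73 CPM untreated, 12.5 and 10.1 CPM with LPS and 5.65 CPM in both GCM libraries, with 0.74 ± 0.161 for LPS (SE; edgeR adjusted p = 0.00198). In this last region both GCM libraries were below both untreated ones, with a log2 difference of -0.25 ± 0.189 (SE; edgeR adjusted p = 0.575).

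Of the 6 members with the smallest p for GCM against untreated, given as a description, chr1:233348359-233349107 was the one with the highest level. Its GCM libraries were at 4.67 and 6.23 CPM, against 9.58 and 10.5 CPM untreated and 12.2 and 13.5 CPM with LPS. The region chr14:108847726-108848034 had the largest difference of all members, -1.21 ± 0.280 (SE; edgeR adjusted p = 0.0181), with 3.94 and 3.78 CPM untreated, 4.57 and 3.35 CPM with LPS and 1.35 and 1.88 CPM with GCM. In both, the GCM libraries were below all 4 others.

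The region chr4:188904711-188905102 had 4.57 and 5.47 CPM untreated, 4.37 and 4.90 CPM with LPS and 2.46 and 2.21 CPM with GCM (-1.09 ± 0.244 SE, edgeR adjusted p = 0.0145). The region chr19:32027755-32028231 had 6.45 and 7.01 CPM untreated, 4.57 and 4.24 CPM with LPS and 2.70 and 3.93 CPM with GCM (-0.96 ± 0.213 SE, edgeR adjusted p = 0.0136). The region chr7:139517071-139517424 had 5.01 and 6.45 CPM untreated, 8.84 and 9.79 CPM with LPS and 2.58 and 3.03 CPM with GCM (-0.97 ± 0.230 SE, edgeR adjusted p = 0.0211). LPS levels thus lay between untreated and GCM in chr19, across the untreated ones in chr4, and above them in chr7, where the LPS log2 change was 0.74 ± 0.175 (SE; edgeR adjusted p = 0.00403). All 6 of these calls for GCM against untreated were lost in DESeq2 and without untreated 1, untreated 2 or GCM 2.

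A few members lacked a GCM hotspot without a lower GCM count. In 6 of the 832 the GCM mean was not below the untreated mean. Besides chr6:101275351-101276031, the 4 with the highest log2 difference included chr1:76115638-76116163, with 5.01 and 4.06 CPM untreated, 5.89 and 5.55 CPM with LPS and 4.79 and 5.00 CPM with GCM. They also included chr9:118532432-118532629, with 2.33 and 2.52 CPM untreated, 2.44 and 3.43 CPM with LPS and 2.21 and 2.79 CPM with GCM. The highest, 0.15, was that of chr1:223618513-223618635, where 8 and 18 tags with GCM stood against 11 and 10 untreated. In all of these the GCM and untreated libraries overlapped, apart from chr6, where GCM 2 equalled untreated 2 to the digits printed.

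The members were narrow and held weak hotspots, as did the other sets that lacked a hotspot in some library. Their median width was 321 bp (quartiles 269 and 376 bp, range 41 to 1005 bp), against 370 bp over all counted regions and 549 bp in regions with hotspots in every list. It was 331 bp in regions with a hotspot in exactly 1 GCM list, 314 bp in those missing only with LPS and 308 bp in those missing only untreated. Widths over 600 bp were found in 29 members (3.49%) and in 43.7% of the regions with hotspots in every list. Per kb, the median over the 4 untreated and LPS libraries was 11.9 CPM in the members and 16.3 CPM in those regions. The set covered 279.7 kb in all.

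The authors' hotspot score, whose definition is not stated, was used as a rank within each list. The median member stood at the 42.1st and 24.0th percentile of the untreated lists and the 32.8th and 39.4th of the LPS lists. Regions with hotspots in every list stood at the 78.7th, 67.2nd, 74.2nd and 77.0th percentile. A total of 342 members were in the lower 50% of all 4 lists and 2 in the upper 50% of all 4. In the untreated lists, regions with a hotspot in exactly 1 GCM list stood at the 50.5th and 30.3rd percentile and those missing only with LPS at the 48.9th and 31.7th. The members' rank was lowest in untreated 2, whose list was the shortest. Most members were thus toward the weak end of the lists that held them.

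The make-up of the set depended on the length of the lists. When each list was shortened to the same number of top-scored hotspots, 610 regions met the rule, and 273 of them were among the 832 (32.8% of the members). When a hotspot had to cover 50% of the region, 1004 regions met it, of which 652 were members. When no GCM hotspot was allowed within 500 bp, 557 members were left.

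Most members lay near a GCM hotspot without overlapping it. The median distance was 1.20 kb, with quartiles of 0.346 and 3.93 kb. Counted regions were closely spaced in general. The median distance to the nearest other one was 1.68 kb for members and 1.70 kb for all regions, so such nearness was not particular to the members. A GCM hotspot lay within 100 bp of 52 members, within 500 bp of 275 (33.1%, of which 138 had one in both lists) and within 10 kb of 731 (87.9%). There were 101 members farther than 10 kb and 12 farther than 50 kb. The median log2 difference between GCM and untreated was -0.49 within 100 bp, -0.45 from 100 to 500 bp, -0.45 from 0.5 to 1 kb, -0.46 from 1 to 10 kb and -0.57 from 10 to 50 kb. It was -0.57 over 50 kb, from 12 regions. The medians between LPS and untreated in the same order were -0.01, -0.10, -0.06, -0.04, -0.17 and -0.20. The quartile ranges of neighbouring distances overlapped in both comparisons.

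**Figure D5:**
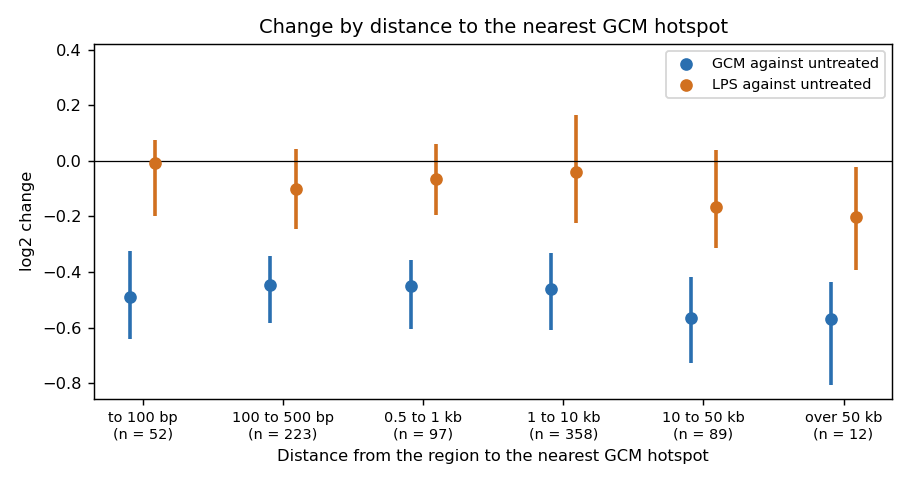
Median log2 change (points) with the middle 50% (lines) of the 831 tested regions by distance to the nearest GCM hotspot, for GCM and for LPS against untreated. GCM medians run from -0.45 to -0.57 and LPS medians from -0.01 to -0.20; the class over 50 kb holds 12 regions.

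The most remote member, named after its values were seen, was chr2:179611504-179611628, 631.9 kb from a GCM hotspot and 628.5 kb from any other counted region. It had 1.52 and 1.68 CPM untreated, 1.52 and 1.06 CPM with LPS and 0.369 and 1.07 CPM with GCM. GCM 1 was the lowest library, while GCM 2 was level with LPS 2, and the edgeR adjusted p for GCM against untreated was 0.227.

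The neighbours of the members did not show differences of the same size. A counted region outside the set lay within 5 kb of 599 members, and 575 such nearest neighbours were tested. Their median log2 difference was -0.06 between GCM and untreated, -0.05 between LPS and untreated and -0.03 between GCM and LPS. For GCM against untreated edgeR called 3 of them higher and 3 lower (0.522%, beside 0.231% of all regions called lower). Both GCM libraries lay below both untreated ones in 186 neighbours (32.3%; 22.4% of all regions). The members, unlike their neighbours, were chosen on the GCM lists, so the contrast between them is a description.

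The members were scattered over all 21 chromosomes that the counted regions covered. They made up from 0.811% (chromosome 20, 16 members) to 1.71% (chromosome 18, 34 members) of the regions with hotspots in all untreated and LPS lists on a chromosome. The median distance to the next member was 735 kb, while the median distance to the nearest counted region was 1.68 kb for members and 1.70 kb for all regions. Another member lay within 50 kb of 65 members (7.81%), in 31 pairs and 1 group of 3.

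The group of 3 spanned 8.65 kb on chromosome 15. Its first region, chr15:47683321-47683640, had 3.49 and 4.20 CPM untreated, 3.05 and 3.26 CPM with LPS and 2.70 and 2.79 CPM with GCM. The second, chr15:47688144-47688441, had 4.21 and 4.06 CPM untreated, 3.15 and 2.69 CPM with LPS and 2.83 and 2.21 CPM with GCM. The last, chr15:47691418-47691966, had 6.18 and 5.89 CPM untreated, 5.79 and 5.22 CPM with LPS and 4.06 and 5.65 CPM with GCM. In all 3 both stimulated groups were below both untreated libraries, and no member of the group was called in any comparison.

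The closest pair spanned 1.21 kb on chromosome 19. The region chr19:48367743-48368034 had 3.58 and 3.08 CPM untreated, 3.05 and 3.67 CPM with LPS and 2.83 and 3.20 CPM with GCM. The region chr19:48368683-48368957 had 3.13 and 3.78 CPM untreated, 3.35 and 3.43 CPM with LPS and 2.58 and 2.54 CPM with GCM. The GCM libraries overlapped the untreated ones in the former and lay below all 4 others in the latter, and neither region was called.

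A looser choice, made from the lists of 1 replicate number and read in the other, gave smaller differences. The lists of replicate 1 alone gave 9437 regions with hotspots untreated and with LPS and none with GCM. Read in the libraries of replicate 2, the median log2 difference of these regions was -0.08 between GCM and untreated, with 57.9% below 0 (49.9% of all regions tested), and -0.17 between GCM and LPS, with 66.0% below 0 (50.9%). The lists of replicate 2 gave 4757 regions, which in replicate 1 had -0.26 between GCM and untreated, with 75.5% below 0 (49.2%), and -0.18 between GCM and LPS, with 66.9% below 0 (49.8%). There was 1 library per group in each reading and hence no test. In the fit of all 6 libraries these sets had medians of -0.26 and -0.39 between GCM and untreated, against -0.47 in the members. The readings thus differ from the members in the regions chosen as well as in the libraries read. The counted regions themselves needed hotspots in both libraries of some group, so the readings are not fully separate from the lists.

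The authors' deposited table for GCM against untreated listed 820 of the members, of which 26 (3.17%) had an FDR under 0.05, all lower. Beside these, 1.82% of the 126640 regions listed passed in either direction, 1889 higher and 414 lower. The rule used this contrast, so the share is a description. In the authors' deposited table for LPS 32 members (3.90%) passed, 25 higher and 7 lower, beside 9.76% of all regions listed.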

How the data were processed

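The authors deposited counts of tags per region for 6 libraries, a hotspot list per library with a score whose definition is not stated, and comparison tables which, per the file headers, hold a log2 fold change, a likelihood ratio score, a p-value with its FDR, and CPM per library. Hotspots were called at a false discovery rate of 0.01, per the list names. The submitters' processing notes list build rn5, DiffBind, edgeR, Picard 1.95, SAMtools, Bowtie 1.1.2 and cutadapt 1.8.3, and give neither order nor settings. The deposited CPM divide by whole-library totals, which were recovered from them (100% of values within 0.001 of a whole count) and used in 1 alternative. Each counted region is a stretch of hotspot that the replicates of some group share.

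Hotspots and regions were intersected with bedtools 2.31.1 (overlap of 1 bp). Counts of all regions were fitted in edgeR 4.0.16 (R 4.3.3; quasi-likelihood, TMM, minimum count 10, all 6 libraries in 1 fit of group means, two-sided tests, Benjamini-Hochberg over 126284 regions, threshold 0.05). TMM factors were 0.986 to 1.01 and the common biological coefficient of variation 5.63%. Each SE is the absolute log2 change over the root of its F statistic. Summaries used Python 3.11.15 with pandas 2.3.3 and numpy 2.4.6. The fit was tested on simulated data with changes larger than the members' median differences. Recovery of differences of the members' size was not tested.

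The members and the rules for naming them were chosen with earlier results of these data known. Named members were first the 8 with the highest mean CPM in untreated and LPS libraries. Next came the 6 with the smallest p among those lower with GCM than untreated. The 5 that rose and 5 that fell with LPS with the smallest p and groups that did not overlap were named too. So were the 4 with the highest log2 change of GCM against untreated and the 4 widest. Regions of the 2 groups with most members, each within 50 kb of the next, were also named, with ties broken by span. The GCM contrasts chose the members and are descriptions. The rule also needed hotspots in all untreated and LPS lists, so counts of members called for LPS are limited by the choice too. Gene assignment, base composition and motifs were planned and not analysed here. Alternatives were other scalings, filters, tests (DESeq2 1.42.0), a replicate block, leaving out each library, and other hotspot rules.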

Additional observations from a re-analysis of the deposited data

How the results depend on the processing

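Of 129 values of the counts, medians and set sizes under alternatives, 97 kept their direction and were classed as unchanged. That class was wide. It held the LPS median of -0.15 without untreated 1, beside -0.07 in the main fit. It also held the 610 regions from lists of equal length, of which 273 were members. Members called for LPS (32) numbered 19 with whole-library totals, 2 in DESeq2, and 9 to 33 when 1 library was left out; they were 559 with lists of replicate 1 only and 218 with lists of replicate 2 only. The median for LPS against untreated turned to 0.013 with whole-library totals, ran from -0.15 to 0.014 when 1 library was left out, and was 0.074 with lists of replicate 1 only. Members called lower with GCM than untreated (24) numbered 1 with whole-library totals, 45 in the likelihood ratio test, 0 in DESeq2 (88 at an unadjusted p under 0.05), and 0 to 38 when 1 library was left out. The counts of 0 came in edgeR without untreated 1, untreated 2 or GCM 2. Of all regions tested for GCM against untreated, 0.340% were called in either direction with whole-library totals. The share was 2.26% in the likelihood ratio test and 0.00238% in DESeq2, beside 1.57% in the main fit. DESeq2 called 0 of all regions lower, so its count of 0 does not set the members apart. How many of all regions had an unadjusted p under 0.05 in DESeq2 is not given. The share of all regions called was also below that of the main fit in the edgeR fits with a count of 0. With lists of 1 replicate number only, 79 and 64 members were called lower. Members called for GCM against LPS (118, all lower) numbered 13 in DESeq2, 43 to 105 when 1 library was left out, 965 with lists of replicate 1 only (963 lower and 2 higher) and 350 with lists of replicate 2 only. Medians with GCM ran from -0.58 to -0.40 against untreated and from -0.50 to -0.34 against LPS when 1 library was left out; the former was -0.26 with lists of replicate 1 only and the latter -0.26 with lists of replicate 2 only. Those lists gave 9437 and 4757 regions, of which 8982 and 4541 were tested. Called for LPS were 6.22% and 4.80% of those tested, against 3.85% of the members. Called lower with GCM than untreated were 0.880% and 1.41%, against 2.89%. Called for GCM against LPS were 10.7% and 7.71%, against 14.2%. The larger counts for GCM thus came from larger sets with smaller shares called. For GCM against LPS, DESeq2 called 0.557% of all regions tested, beside 8.58% in the main fit. It called 1.56% of the members, and 43 members had no adjusted p there. In every fit that left out 1 library the share of all regions called for this contrast was also below that of the main fit. The lower counts of members thus came with fewer calls among all regions. The cause of the shifts under the alternatives was not tested, except that a list of 1 replicate number asks less of a region. Of 240 values of named regions 178 kept their call and 0 turned direction.

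With a block for replicate number, 65 members (7.82%) were called lower with GCM than untreated. Beside these, 2.64% of all regions tested were called in either direction, and 763 of 126284 were called lower. The block moved the LPS and GCM against LPS counts by less than 1.5 times. Deviations of same-numbered libraries correlated at 0.0484, 0.100 and 0.000999 for untreated with LPS, untreated with GCM and LPS with GCM. The labels state independent cultures. Whether same-numbered libraries were paired across groups cannot be told from these values, and the main fit used no block. Median counts of 21 to 45 tags per member and 2 cultures per group limit the precision of each difference.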
